A study of Mus musculus with 12 samples.

Results

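Transcript levels of collagen genes outside cartilage were described in mouse embryonic fibroblasts (MEFs) on day 6 of differentiation towards adipocytes. The members were all protein-coding mouse genes whose symbol is Col, a number, a and a number, without the 7 genes of the cartilage collagens (Col2a1, Col9a1, Col9a2, Col9a3, Col10a1, Col11a1 and Col11a2). The rule used names only and gave 37 genes of the 37991 gene identifiers in the files: 8 fibrillar, 9 basement membrane, 6 beaded and 14 other collagen genes. All 37 had a line in every file, and 36 passed the filter on low counts; Col13a1, which codes for a transmembrane collagen, had 1 to 5 reads per library and was not tested. Cells came from male embryos of strain C57BL/6N taken at E15.5 and had been grown for 4 passages. After confluence every group was given the same inducers for 48 h, namely insulin at 10 µg/ml, rosiglitazone at 2 µM, dexamethasone at 1 µM and 3-isobutyl-1-methylxanthine at 0.5 mM, and insulin was kept thereafter. Per the labels, the groups were Gadd45a-/-;Ing1-/- (DKO), Ing1-deficient (Ing1-KO), Gadd45a-deficient (Gadd45a-KO) and wild type (WT), with 3 libraries each and 12 in all. The mutations were carried by the interbred mice, so every cell of an embryo shared its genotype. How many embryos stood behind the libraries is not given in the sources used here, so a p-value here reflects how much these libraries vary, which may be technical.

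Collagens are secreted or membrane-bound proteins whose chains wind around each other into a rope-like helix. Fibrillar collagens form the tensile fibres of connective tissue, collagen IV and its partners form the sheet-like basement membrane on which cells sit, and collagen VI forms beaded filaments around cells. Fibroblasts are the main source of fibrillar collagen, and in adipose tissue each fat cell is wrapped in a basement membrane and collagen VI is abundant.

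Gene reads per library ranged from 42891627 to 52860419, and values are given as CPM, counts per 1000000 gene reads. Ing1, a reader of methylated histone H3, followed the labels, at 0.909 ± 0.223 CPM in DKO, 1.24 ± 0.329 in Ing1-KO, 46.0 ± 1.51 in Gadd45a-KO and 45.0 ± 2.43 in WT (SD, n = 3 each). Gadd45a, a stress-induced gene, went against them: it stood at 139 ± 0.299 CPM in the libraries labelled DKO and 143 ± 2.1 in those labelled Gadd45a-KO, against 15.8 ± 2.59 in Ing1-KO and 15.7 ± 1.86 in WT. A gene count does not show which exons the reads came from, so every direction given here for the libraries labelled DKO or Gadd45a-KO rests on the labels. The 12 fibroblast markers summed to 13270 to 13872 CPM in DKO, 12909 to 14564 in Ing1-KO, 13914 to 15538 in Gadd45a-KO and 14655 to 15545 in WT, and each of the 12 reached 1 CPM in at least 1 library. The 14 adipocyte markers summed to 287 to 416 CPM in DKO, 385 to 3456 in Ing1-KO, 1281 to 1735 in Gadd45a-KO and 1903 to 3945 in WT. The 12 leukocyte markers summed to 6995 to 7418 CPM in DKO, 3850 to 4592 in Ing1-KO, 1996 to 5924 in Gadd45a-KO and 3821 to 4388 in WT. In bulk RNA, fewer cells of a type and less RNA per cell cannot be told apart.

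The 37 genes took a large part of the RNA in every culture. Their share of all gene reads was 6.50%, 6.53% and 7.25% in the 3 libraries labelled DKO, with a mean of 6.76% ± 0.421 (SD, n = 3). It was 7.34% ± 0.254 in Ing1-KO, 7.29% ± 0.115 in Gadd45a-KO and 7.44% ± 0.335 in WT. DKO replicates 1 and 2 lay under every other library, and DKO replicate 3 lay within the WT range of 7.18% to 7.82%. Most of the share belonged to 6 genes, Col1a1, Col1a2, Col3a1, Col12a1, Col5a1 and Col5a2, which together took 5.57% in DKO, 6.09% in Ing1-KO, 6.01% in Gadd45a-KO and 6.16% in WT. The fibrillar class alone took 4.63% ± 0.352 in DKO and 5.21% ± 0.280 in WT, and the beaded class took 0.599% ± 0.0495 in DKO and 0.693% ± 0.0260 in WT. The basement membrane class took 0.411% ± 0.0386 in DKO and 0.432% ± 0.0141 in WT, a difference smaller than the spread between replicates. The other class took 1.12% ± 0.0726 in DKO and 1.10% ± 0.0228 in WT, and was lowest in Ing1-KO at 1.00% ± 0.0751. A share over the members was described only and has no test.

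**Figure D1:**
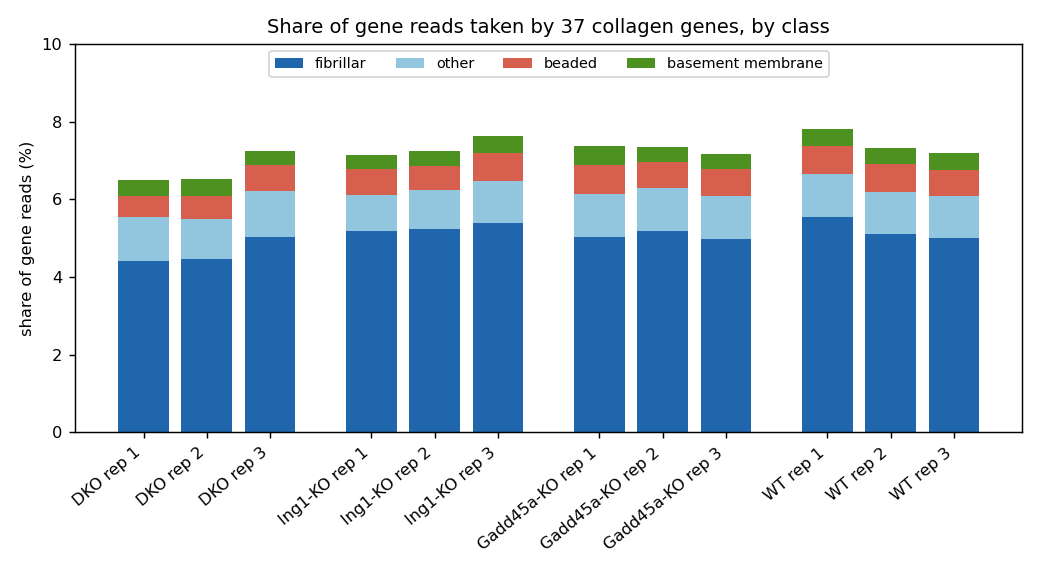
Share of gene reads (%, vertical axis) taken by the 37 collagen genes in each of the 12 libraries, stacked by class, with the libraries labelled DKO at the left and WT at the right. DKO replicates 1 and 2, at 6.50% and 6.53%, are the lowest bars, and the fibrillar class makes up most of every bar.

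Levels of different genes were compared per length, as CPM per kb of the longest protein-coding transcript. Over the 12 libraries the interstitial fibre genes led: Col1a2 averaged 2657 CPM per kb, Col1a1 2466 and Col3a1 2166, chains of collagens I and III. Next came Col12a1, a collagen that sits on the surface of collagen I fibres, at 817 CPM per kb, then Col5a2 at 661 and Col5a1 at 583, chains of collagen V, which nucleates those fibres. The 3 main collagen VI chains followed, Col6a1 at 529, Col6a2 at 342 and Col6a3 at 284 CPM per kb, beside the widespread collagen IV chains Col4a1 at 283 and Col4a2 at 229. Col8a1, a short-chain collagen of vessel walls and Descemet's membrane, stood at 147 CPM per kb. At the other end, Col4a4 was at 0.0184 CPM per kb with 2 to 22 reads per library, Col4a3 at 0.0383 with 7 to 26 reads, and Col13a1 at 0.0228. Col22a1, Col17a1, Col6a6 and Col6a5 were each under 0.10 CPM per kb as well, so that their fold changes rest on few reads.

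**Figure D2:**
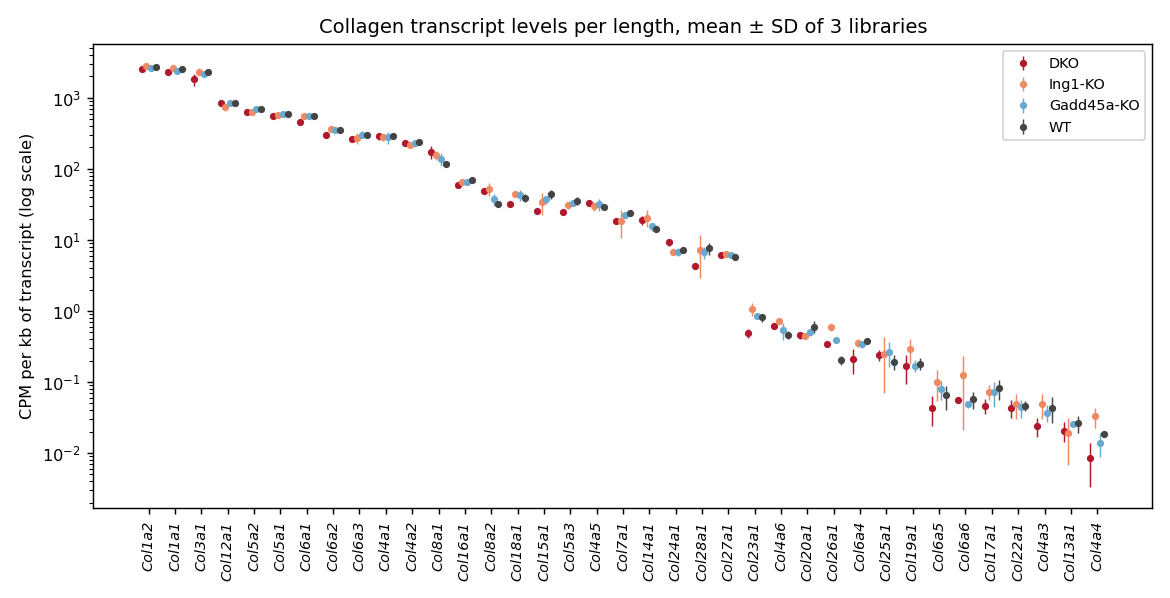
Level of each of the 37 collagen genes in CPM per kb of transcript (vertical axis, log scale), as the mean of 3 libraries with SD, for the 4 genotypes. Genes are ordered by their mean over 12 libraries, from Col1a2 at 2657 to Col4a4 at 0.0184 CPM per kb, and the genotypes lie close together for most genes.

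In the libraries labelled DKO against WT, 10 of the 36 tested collagen genes passed the test and 7 of these were lower. The share of 27.8% compares with 13.0% over all 16163 genes tested (edgeR quasi-likelihood test, Benjamini-Hochberg adjusted p under 0.05 over all genes), of which 5.88% were higher and 7.11% lower. The genes that fell were Col5a3, Col6a1, Col6a2, Col6a4, Col15a1, Col16a1 and Col23a1, and those that rose were Col8a2, Col24a1 and Col26a1. The log2 fold change was negative for 26 of the 36 genes and positive for 10. Its median was -0.14, beside -0.0026 over all genes. The count depended on single libraries: without DKO replicate 1 it was 1 gene (Col23a1), without DKO replicate 2 or WT replicate 1 it was 1 gene (Col5a3), and without WT replicate 3 it was 2 genes (both of these). It was 6 without WT replicate 2, and between 7 and 12 without any of the other libraries. The share of all genes called moved too. It was 1.96% without DKO replicate 1, 4.96% without DKO replicate 2 and 1.82% without WT replicate 1. Without WT replicate 3 it was 4.11%, without WT replicate 2 9.83%, and without any of the other libraries 9.95% to 16.9%. With no filter on low counts, Col8a2, Col15a1 and Col24a1 were no longer called. In the same comparison 13 of 14 adipocyte markers fell, 5 of 12 leukocyte markers rose, 4 of 10 contractile markers rose and 2 of 12 fibroblast markers fell. Their part in the collagen differences was not tested.

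**Figure D3:**
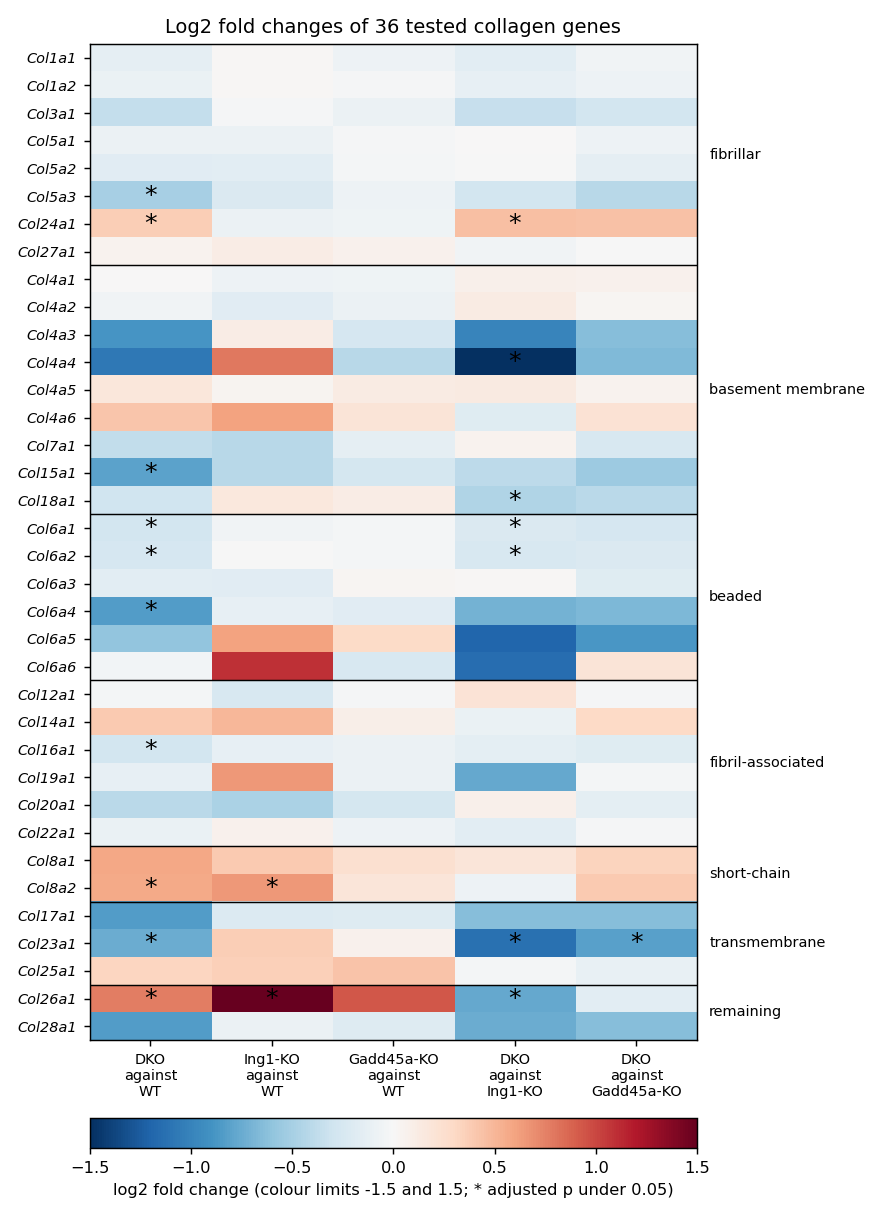
Log2 fold changes (colour, limits -1.5 and 1.5) of the 36 tested collagen genes in 5 comparisons (columns), with classes separated by lines and an asterisk for an adjusted p under 0.05. The first column, DKO against WT, holds 10 asterisks, the Gadd45a-KO column holds 0, and the 6 beaded genes are all below 0 in the first column.

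Among the fibrillar collagens, the abundant chains of collagens I, III and V did not pass the test and a minor chain did. Col5a3, the third chain of collagen V, was at 149, 157 and 153 CPM in the libraries labelled DKO, against 246, 204 and 195 CPM in WT. Every DKO library lay under every WT library, and Col5a3 fell with a log2 fold change of -0.49 ± 0.09 (SE) and an adjusted p of 0.0104 by edgeR's quasi-likelihood test, in all leave-one-out fits but that without DKO replicate 1 (adjusted p = 0.0519). In the other genotypes its mean stood between, with 196, 166 and 203 CPM in Ing1-KO and 202, 208 and 205 CPM in Gadd45a-KO. All Gadd45a-KO libraries lay within the WT range, as did Ing1-KO replicates 1 and 3. Col24a1, a fibrillar collagen of developing bone and cornea, was at 71.4, 68.3 and 58.0 CPM in DKO, against 48.9, 53.5 and 50.0 CPM in WT. It rose in DKO by a log2 fold change of 0.37 ± 0.11 (edgeR adjusted p = 0.0426). It also rose against Ing1-KO, where its level was 44.3, 50.8 and 51.4 CPM (log2 fold change 0.46 ± 0.11, edgeR adjusted p = 0.0272). Col24a1 was thus highest in the DKO libraries, without overlap with any other genotype. The call against WT held in 5 of 12 leave-one-out fits (lost without DKO replicate 1 or 2, Ing1-KO replicate 2, Gadd45a-KO replicate 3 or any WT library, adjusted p between 0.0605 and 0.155). The call against Ing1-KO held in 8 of 12 (lost without DKO replicate 1 or 2 or Ing1-KO replicate 1 or 2, adjusted p between 0.0821 and 0.101).

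Among the chains of collagens I, III and V other than Col5a3, Col3a1 had the largest log2 fold change in size between DKO and WT. It stood at 9591, 8591 and 12092 CPM in the libraries labelled DKO, against 13758, 12334 and 12580 CPM in WT. The groups did not overlap, but DKO replicate 3 came close to the lowest WT library, and the log2 fold change of -0.36 ± 0.11 had an edgeR adjusted p of 0.0594. Col3a1 was called in 3 of 12 leave-one-out fits, without DKO replicate 3 (log2 fold change -0.50, edgeR adjusted p = 0.0148) or Ing1-KO replicate 1 or 3. In the other 9 the adjusted p lay between 0.0559 and 0.203, with a log2 fold change as small as -0.26 without DKO replicate 2. Of the 7 other settings DESeq2 called it (adjusted p = 0.0180) and the other 6 did not. Col1a1 averaged 13713 ± 577 CPM in DKO and 14954 ± 1099 CPM in WT (log2 fold change -0.13 ± 0.07, edgeR adjusted p = 0.244), and their ranges overlapped. Its partner chain Col1a2 averaged 13410 ± 988 CPM in DKO and 14342 ± 629 CPM in WT (-0.10 ± 0.06, edgeR adjusted p = 0.286). Col5a2 averaged 4129 ± 263 CPM in DKO and 4620 ± 148 CPM in WT (-0.17 ± 0.06, edgeR adjusted p = 0.0772). Col5a1, at 4734 ± 174 CPM in DKO and 5027 ± 220 CPM in WT, and Col27a1, at 46.2 ± 1.84 CPM in DKO and 44.3 ± 3.06 CPM in WT, differed by less than 0.10 on the log2 scale.

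Among the beaded collagens, 3 of 6 genes fell in the libraries labelled DKO against WT and 0 rose, beside 7.11% lower and 5.88% higher over all genes. The log2 fold change was negative for all 6, beside 26 of 36 members and 8196 of 16163 genes. Col6a1 and Col6a2, the chains that form collagen VI together with Col6a3, were both among the 3 that fell. Their genes are neighbours that lie in the same direction on chromosome 10 with no protein-coding gene between them. The stretches around their start sites are printed because these genes fell together; each runs 5′ to 3′ from 250 bases before to 50 bases after the start in RefSeq's mouse build GRCm38.p6, and capitals mark a GC box (GGGCGG) or a CCAAT box (CCAAT) on either strand. Col6a1 is at chr10:76725995-76726294 and Col6a2 at chr10:76623581-76623880, both on the minus strand.
Col6a1: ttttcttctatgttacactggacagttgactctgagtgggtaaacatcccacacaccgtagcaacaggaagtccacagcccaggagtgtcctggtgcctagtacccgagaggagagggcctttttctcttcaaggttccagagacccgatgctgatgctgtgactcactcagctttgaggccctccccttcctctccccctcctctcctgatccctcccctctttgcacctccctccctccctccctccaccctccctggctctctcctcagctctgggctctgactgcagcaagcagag
Col6a2: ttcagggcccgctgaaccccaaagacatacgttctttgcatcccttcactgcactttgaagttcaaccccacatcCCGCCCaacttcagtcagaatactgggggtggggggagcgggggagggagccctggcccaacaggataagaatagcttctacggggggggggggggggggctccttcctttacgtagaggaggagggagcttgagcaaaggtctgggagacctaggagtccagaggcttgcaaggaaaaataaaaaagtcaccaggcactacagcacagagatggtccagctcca
The Col6a1 stretch held neither motif, and the Col6a2 stretch held 1 GC box on the other strand. RefSeq lists a second Col6a2 start, not printed, whose stretch at chr10:76623355-76623654 held 3 GC boxes. Neither held TATAAA.

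Col6a1 was at 1745, 1825 and 2109 CPM in the libraries labelled DKO, against 2354, 2277 and 2209 CPM in WT. All DKO libraries lay under all other libraries, and the gap was narrow for DKO replicate 3, with Ing1-KO at 2358, 2171 and 2201 CPM and Gadd45a-KO at 2330, 2231 and 2217 CPM. Col6a1 fell against WT by a log2 fold change of -0.27 ± 0.06 (edgeR adjusted p = 0.0200) and against Ing1-KO by -0.22 ± 0.06 (edgeR adjusted p = 0.0451). Col6a2 followed the same pattern, at 1293, 1338 and 1561 CPM in DKO, against 1716, 1654 and 1592 CPM in WT. DKO replicate 3 was again the highest of its group and came close to the lowest WT library. Col6a2 fell against WT by -0.25 ± 0.06 (edgeR adjusted p = 0.0264) and against Ing1-KO by -0.24 ± 0.06 (edgeR adjusted p = 0.0352). Against Gadd45a-KO the log2 fold changes were -0.25 for Col6a1 (adjusted p = 0.0708) and -0.22 for Col6a2 (adjusted p = 0.0973), which did not pass edgeR's test. The calls against WT held in 8 of 12 leave-one-out fits for Col6a1 and in 7 of 12 for Col6a2. They were lost for both without DKO replicate 1 or 2 or WT replicate 1 or 3, and for Col6a2 also without WT replicate 2, with adjusted p between 0.0544 and 0.111. The calls against Ing1-KO held in 6 of 12 for Col6a2, lost without DKO replicate 1 or 2, Ing1-KO replicate 1 or 2, Gadd45a-KO replicate 3 or WT replicate 3 (adjusted p between 0.0528 and 0.127). For Col6a1 they held in 3 of 12, those without DKO replicate 3, Ing1-KO replicate 3 and Gadd45a-KO replicate 1, and the adjusted p of the others lay between 0.0572 and 0.156.

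Col6a3, the third main chain of collagen VI, did not pass the test. It was at 2483, 2777 and 2836 CPM in DKO, against 3058, 3081 and 2831 CPM in WT, with a log2 fold change of -0.15 ± 0.11 (edgeR adjusted p = 0.422), and the groups overlapped by DKO replicate 3. Col6a4, a chain that can take the place of Col6a3, was at 1.17, 1.26 and 2.27 CPM in DKO, against 2.87, 2.57 and 2.93 CPM in WT. It fell by -0.84 ± 0.22 (edgeR adjusted p = 0.0313), in 8 of 12 leave-one-out fits, and the call was lost without DKO replicate 1 or 2 or WT replicate 1 or 3 (adjusted p between 0.0972 and 0.120). With 50 to 149 reads per library it is a minor transcript, and DKO replicate 3 stood nearer to WT than to the other DKO libraries. The similar chains Col6a5 and Col6a6, neighbours of Col6a4 on chromosome 9, had 9 to 65 and 16 to 106 reads per library and were not called in any comparison. Their Ing1-KO libraries were spread widely, at 1.32, 1.04 and 0.467 CPM for Col6a5 and 2.15, 0.679 and 0.467 CPM for Col6a6.

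**Figure D4:**
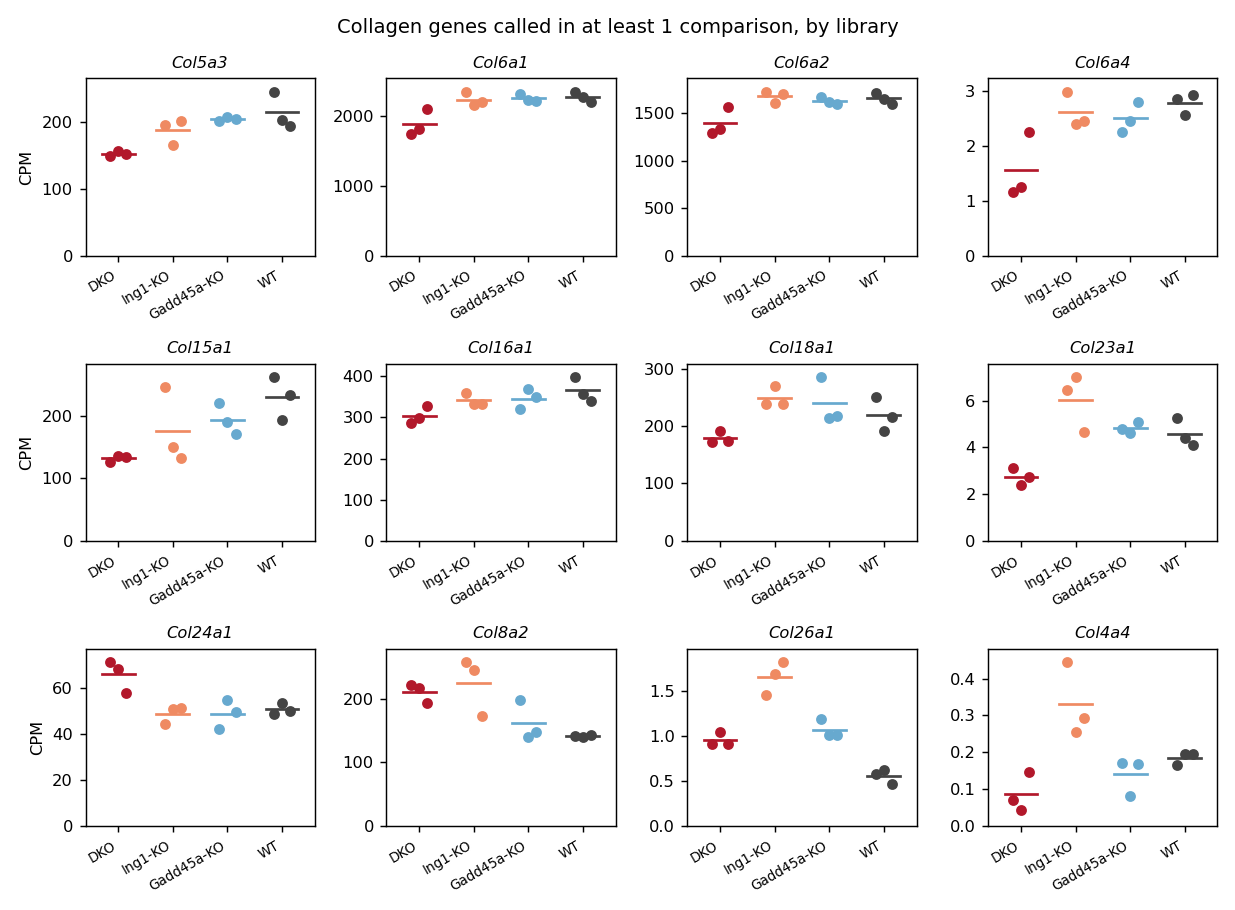
CPM (vertical axes from 0) of the 12 collagen genes called in at least 1 comparison, 1 point per library and a line at the mean of 3, for DKO, Ing1-KO, Gadd45a-KO and WT from left to right. DKO points lie lowest for Col5a3, Col6a1, Col6a2 and Col23a1, highest for Col24a1, and between WT and Ing1-KO for Col26a1.

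Among the basement membrane collagens, the abundant collagen IV chains were not called in any comparison, and Col15a1 and Col18a1 fell in the libraries labelled DKO in 1 comparison each. Col4a1 and Col4a2, which together make the collagen IV of most basement membranes, lie head to head on chromosome 8. They are also the members nearest to Ing1 in GENCODE vM21. Between Col4a2 and Ing1 lie 3 protein-coding genes and a gap of 0.106 Mb. Col4a1 lies on the far side of Col4a2, with a gap of 0.243 Mb to Ing1. The start stretches of Col4a1 and Col4a2 are printed because they face each other and share 78 bases, read from opposite strands, and because they lie near the gene targeted in the Ing1-KO and DKO mice. Both are from RefSeq build GRCm38.p6, with capitals as above; Col4a1 is at chr8:11312777-11313076 on the minus strand and Col4a2 at chr8:11312555-11312854 on the plus strand.
Col4a1: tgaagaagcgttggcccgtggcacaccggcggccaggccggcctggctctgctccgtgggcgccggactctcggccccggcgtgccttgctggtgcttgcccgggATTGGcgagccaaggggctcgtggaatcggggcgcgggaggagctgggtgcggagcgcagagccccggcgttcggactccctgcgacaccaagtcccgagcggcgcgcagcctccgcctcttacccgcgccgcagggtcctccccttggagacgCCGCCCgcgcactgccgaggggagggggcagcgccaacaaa
Col4a2: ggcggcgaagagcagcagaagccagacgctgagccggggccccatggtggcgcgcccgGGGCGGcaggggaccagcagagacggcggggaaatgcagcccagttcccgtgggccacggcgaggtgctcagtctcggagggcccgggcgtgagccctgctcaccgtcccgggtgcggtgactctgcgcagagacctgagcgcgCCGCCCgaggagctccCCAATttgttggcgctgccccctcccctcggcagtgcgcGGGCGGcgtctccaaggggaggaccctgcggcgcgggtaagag
Each stretch held a CCAAT box, and the Col4a2 stretch held 3 GC boxes against 1 in the Col4a1 stretch; 1 GC box lies in the shared bases. Of the 37 members 30 had an entry in the RefSeq table, in 32 start stretches. GGGCGG was found on either strand in 20 of these 32, against 35.7% of all 32851 entries of the same length. CCAAT was found in 11 of 32, against 37.4% of all, and TATAAA in 3 of 32, against 13.6% of all. A match is a description of letters and not of binding.

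Col4a1 was at 1918, 2128 and 1687 CPM in DKO and 1680, 1776 and 2063 CPM in Ing1-KO, against 1959, 1873 and 1880 CPM in WT. In Gadd45a-KO it was at 2223, 1607 and 1685 CPM, and the groups overlapped throughout. Its log2 fold change against WT was 0.00 ± 0.13 in DKO (edgeR adjusted p = 0.996) and -0.08 ± 0.13 in Ing1-KO (edgeR adjusted p = 0.788). Col4a2 averaged 1497 ± 159 CPM in DKO, 1403 ± 136 in Ing1-KO, 1474 ± 171 in Gadd45a-KO and 1548 ± 19.2 in WT. Its log2 fold change against WT was -0.05 ± 0.10 in DKO (edgeR adjusted p = 0.779) and -0.17 ± 0.10 in Ing1-KO (edgeR adjusted p = 0.368). Exons of the Col4a1 and Col4a2 genes overlap on opposite strands in the annotation, so a few reads at their start could belong to either. Col4a5, a chain of specialised basement membranes on the X chromosome, averaged 214 ± 4.2 CPM in DKO and 189 ± 7.64 CPM in WT and was not called (edgeR adjusted p = 0.435). Its head-to-head neighbour Col4a6 was at 4.94, 4.63 and 4.73 CPM in Ing1-KO, against 2.66, 3.54 and 3.05 CPM in WT, which did not overlap (log2 fold change 0.60 ± 0.18, edgeR adjusted p = 0.0811; DESeq2 adjusted p = 0.0282).

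Col15a1, a collagen that anchors basement membranes to the matrix beside fat cells and muscle, was at 126, 135 and 134 CPM in the libraries labelled DKO, against 262, 193 and 233 CPM in WT. All DKO libraries lay under all WT libraries, and Col15a1 fell by a log2 fold change of -0.80 ± 0.21 (edgeR adjusted p = 0.0348). The call held in 6 of 12 leave-one-out fits and was lost without any 1 DKO library, Gadd45a-KO replicate 2 or WT replicate 1 or 3 (adjusted p between 0.0503 and 0.128). It was at 246, 149 and 133 CPM in Ing1-KO and at 220, 190 and 170 CPM in Gadd45a-KO. Col18a1, the source of the fragment endostatin, was at 172, 192 and 174 CPM in DKO, against 238, 269 and 239 CPM in Ing1-KO. It fell against Ing1-KO by -0.45 ± 0.12 (edgeR adjusted p = 0.0425), in 5 of 12 leave-one-out fits. The call was lost without any 1 DKO library, Ing1-KO replicate 1 or 2, Gadd45a-KO replicate 3 or WT replicate 3 (adjusted p between 0.0533 and 0.134). The log2 fold change reached -0.29 ± 0.12 against WT at 250, 192 and 215 CPM (edgeR adjusted p = 0.141). Col7a1, which forms the anchoring fibrils of skin, was at 169, 177 and 173 CPM in DKO and 244, 224 and 199 CPM in WT. The groups did not overlap, but the log2 fold change of -0.37 ± 0.23 had an edgeR adjusted p of 0.343. Its Ing1-KO libraries ran from 104 to 245 CPM. Col4a4, a kidney chain, fell in DKO against Ing1-KO by -1.87 ± 0.42 (edgeR adjusted p = 0.0254), at 0.0699, 0.0435 and 0.146 CPM in DKO and 0.446, 0.255 and 0.292 CPM in Ing1-KO. At 2 to 22 reads per library it is barely detected, and DESeq2 gave no adjusted p for it. The call was lost without DKO replicate 1 or 2 or Ing1-KO replicate 1 or 2 (adjusted p between 0.0748 and 0.0940).

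In the mixed remaining class, 2 of 13 tested genes rose and 2 fell in DKO against WT, beside 5.88% and 7.11% of all genes. Col8a2, 1 of 2 short-chain genes, rose and Col16a1, 1 of 6 fibril-associated genes, fell. Col23a1, 1 of 3 tested transmembrane genes, fell and Col26a1, 1 of 2 genes outside these kinds, rose. Col8a2, the partner chain of Col8a1, was at 221, 216 and 194 CPM in the libraries labelled DKO and 258, 245 and 173 CPM in Ing1-KO, against 141, 139 and 142 CPM in WT. Every library of both mutants was above every WT library, and Col8a2 rose by 0.57 ± 0.16 in DKO (edgeR adjusted p = 0.0388) and by 0.65 ± 0.16 in Ing1-KO (edgeR adjusted p = 0.0486) on the log2 scale. The call in DKO held in 4 of 12 leave-one-out fits, those without Ing1-KO replicate 1 or 3 or Gadd45a-KO replicate 1 or 2, and the adjusted p of the others lay between 0.0509 and 0.125. The call in Ing1-KO held in 2 of 12, those without Ing1-KO replicate 3 or Gadd45a-KO replicate 1, and the adjusted p of the others lay between 0.0538 and 0.181. The log2 fold changes without a library stayed between 0.54 and 0.64 in DKO and between 0.54 and 0.81 in Ing1-KO. Col8a1 had a like size of difference in DKO, 0.58 ± 0.19, with 1075, 917 and 683 CPM in DKO and 581, 555 and 653 CPM in WT, and missed the threshold (edgeR adjusted p = 0.0740; DESeq2 adjusted p = 0.0119). Gadd45a-KO replicate 1, at 874 CPM for Col8a1 and 197 CPM for Col8a2, was above the other libraries of its group, at 574 and 692 CPM and 140 and 147 CPM. That library also had the lowest leukocyte sum of all, 1996 CPM.

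Col16a1, a fibril-associated collagen, fell in DKO against WT by -0.27 ± 0.07 (edgeR adjusted p = 0.0336), at 287, 300 and 327 CPM in DKO and 399, 357 and 341 CPM in WT. The groups did not overlap, and the call held in 6 of 12 leave-one-out fits (lost without DKO replicate 1 or 2, Gadd45a-KO replicate 3 or any WT library, adjusted p between 0.0506 and 0.140). Col12a1, by far the most abundant of this kind, was at 9552, 8815 and 10443 CPM in DKO and 7725, 8309 and 9390 CPM in Ing1-KO, against 9978, 9887 and 9505 CPM in WT. It was not called in DKO (log2 fold change -0.03 ± 0.07, edgeR adjusted p = 0.815) nor in Ing1-KO (-0.24 ± 0.07, edgeR adjusted p = 0.10), although all Ing1-KO libraries were under all WT libraries and DESeq2 called it there (adjusted p = 0.0314). Col14a1, which also decorates collagen I fibres, was at 130, 103 and 135 CPM in DKO and 92.2, 86.8 and 99.2 CPM in WT without overlap (0.40 ± 0.19, edgeR adjusted p = 0.198). Col19a1, Col20a1 and Col22a1 had between 12 and 172 reads per library and were not called in any comparison. An annotated transcript on the same strand overlaps exons of Col20a1 and reached 436 reads, so its counts are uncertain.

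Col23a1 and Col26a1, both rare transcripts, were called in 3 comparisons each. Col23a1, a transmembrane collagen, was at 3.12, 2.39 and 2.72 CPM in the libraries labelled DKO. It was at 6.44, 7.03 and 4.67 CPM in Ing1-KO, 4.81, 4.61 and 5.08 CPM in Gadd45a-KO and 5.26, 4.41 and 4.11 CPM in WT. Every DKO library was under every library of the other genotypes. Col23a1 fell in DKO against WT by -0.75 ± 0.16 (edgeR adjusted p = 0.0167), against Ing1-KO by -1.11 ± 0.16 (edgeR adjusted p = 0.0117) and against Gadd45a-KO by -0.81 ± 0.16 (edgeR adjusted p = 0.0408). These comparisons share the DKO libraries. The call against WT was lost without DKO replicate 2 (adjusted p = 0.0598) or WT replicate 1 (adjusted p = 0.0782), and that against Ing1-KO without DKO replicate 1 (adjusted p = 0.0681) or Ing1-KO replicate 2 (adjusted p = 0.0622). The call against Gadd45a-KO held in 3 of 12 leave-one-out fits, those without Ing1-KO replicate 1 or 3 or Gadd45a-KO replicate 1, and the adjusted p of the others lay between 0.0529 and 0.153. Col23a1 had 110 to 331 reads per library.

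Col26a1, a secreted protein with short collagen stretches, was lowest in WT. It was at 0.909, 1.04 and 0.915 CPM in DKO, 1.46, 1.70 and 1.83 CPM in Ing1-KO and 1.19, 1.01 and 1.02 CPM in Gadd45a-KO, against 0.583, 0.626 and 0.472 CPM in WT. No mutant library overlapped with WT. Col26a1 rose in Ing1-KO against WT by 1.54 ± 0.16 (edgeR adjusted p = 0.00174), in all 12 leave-one-out fits, and in DKO against WT by 0.77 ± 0.17 (edgeR adjusted p = 0.0179), in 8 of 12, lost without DKO replicate 1 or 2 or WT replicate 1 or 3 (adjusted p between 0.0622 and 0.0703). It fell in DKO against Ing1-KO by -0.77 ± 0.16 (edgeR adjusted p = 0.0207), a call lost without DKO replicate 1 or 2 or Ing1-KO replicate 2 (adjusted p between 0.0514 and 0.0869). In Gadd45a-KO the log2 fold change against WT was 0.93 ± 0.17, which did not pass the adjustment over all genes (edgeR adjusted p = 0.451). The gene had 24 to 94 reads per library. Col28a1, which in other tissues marks glia of nerves, was at 18.1, 16.7 and 19.4 CPM in DKO and 34.6, 25.1 and 36.6 CPM in WT without overlap, and was not called (-0.83 ± 0.40, edgeR adjusted p = 0.197). Col17a1, a keratinocyte collagen, and Col25a1, a neuronal one, were under 1 and under 4 CPM in all libraries and were not called. Keratinocyte markers summed to 3.04 to 7.58 CPM over the 12 libraries.

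The single mutants differed from WT in few collagen genes. In Ing1-KO against WT, 2 of 36 rose, Col8a2 and Col26a1, and 0 fell, beside 2.31% of all genes higher, 1.84% lower and 4.15% in either direction. The median log2 fold change of the 36 was 0.01, with 18 genes negative and 18 positive. DESeq2 called 4 members, adding Col4a6 and Col12a1, beside 7.82% of all genes. Without Ing1-KO replicate 3 the edgeR count was 6, and in every other leave-one-out fit it was 1 to 3, with Col26a1 in each. Of all genes, 7.05% were called without Ing1-KO replicate 3 and 0.586% to 6.96% in the other leave-one-out fits. Col8a2 was no longer called with no filter or with the compared libraries alone. Between the libraries labelled Gadd45a-KO and those of WT, edgeR called 0 of 36 collagen genes, beside 0.0124% of all genes. At an unadjusted p under 0.05 it found 1 member, Col26a1, beside 854 of all 16163 genes. DESeq2 called 0 members, beside 0.0433% of all genes. All 8 fibrillar genes had a log2 fold change under 0.10 in size there, as did 19 of 36 members and 10058 of 16163 genes.

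In the libraries labelled DKO against Ing1-KO, 6 members fell and 1 rose, 7 of 36, beside 12.0% of all genes called, 6.02% lower and 5.93% higher. These were Col23a1, Col26a1, Col4a4, Col6a2, Col18a1 and Col6a1, lower, and Col24a1, higher. Leaving out DKO replicate 1 or Ing1-KO replicate 2 gave 0 calls. Leaving out DKO replicate 2 gave 1, Ing1-KO replicate 1 gave 2, Gadd45a-KO replicate 3 or WT replicate 3 gave 4, and Ing1-KO replicate 3 gave 14. Of all genes, 0.0366% were called without DKO replicate 1, 0.0733% without Ing1-KO replicate 2 and 0.853% without DKO replicate 2. The share was 1.89% without Ing1-KO replicate 1 and 7.25% without Gadd45a-KO replicate 3. It was 6.52% without WT replicate 3 and 19.4% without Ing1-KO replicate 3. Col18a1 was no longer called with no filter, and Col4a4, Col6a1 and Col6a2 with the compared libraries alone. In the libraries labelled DKO against Gadd45a-KO, 1 of 36 was called, Col23a1, beside 1.19% of all genes. The count was 0 to 5 in the leave-one-out fits, with 5 when DKO replicate 3 was left out, 4 for Ing1-KO replicate 1, 2 for Ing1-KO replicate 3, and 0 for DKO replicate 1 or 2, Gadd45a-KO replicate 2 or 3 or WT replicate 2 or 3. Calls over all genes were 519, 490 and 600 in the fits with 5, 4 and 2 members. They were 6 to 83 in the fits with 0 members, beside 192 with all libraries. With all libraries Col5a3 came next after Col23a1, at -0.41 ± 0.09 and an edgeR adjusted p of 0.0511.

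The DKO effect was also set against the sum of the single-mutant effects, by the interaction term of the fit. EdgeR called 0 of 36 members and 0.0% of all genes at the adjusted threshold; at an unadjusted p under 0.05 it found 8 members and 2195 genes of 16163. DESeq2 called 2 members, beside 175 of 16163 genes. These members were Col23a1 and Col26a1, both with a DKO level under the sum. For Col26a1 the departure was -1.70 ± 0.23 on the log2 scale (edgeR adjusted p = 0.0857; DESeq2 adjusted p = 0.00044), and for Col23a1 it was -1.18 ± 0.22 (edgeR adjusted p = 0.143; DESeq2 adjusted p = 0.00171). EdgeR called both without Ing1-KO replicate 3, beside 1.17% of all genes. It called Col26a1 alone without DKO replicate 3, beside 0.195% of all genes. All 6 beaded genes had a negative departure, between -1.48 and -0.01, beside 27 of 36 members and 8181 of 16163 genes.

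The Ing1-KO libraries differed widely among themselves in several collagens. Their adipocyte markers summed to 3456 CPM in replicate 1, 1142 in replicate 2 and 385 in replicate 3. Of the 36 tested members, 9 had the same order as these sums and 15 the reverse order, beside 24.9% and 26.5% of all genes. In DKO, 9 members had the same and 3 the reverse order, beside 26.4% and 16.1% of all genes. The counts were 3 and 1 in Gadd45a-KO, beside 11.2% and 9.69%, and 7 and 3 in WT, beside 21.1% and 21.9%. Col12a1, Col4a5 and Col5a2, in reverse order in Ing1-KO, were in the same order in DKO. In Ing1-KO Col28a1 was at 49.6, 31.0 and 12.1 CPM, Col15a1 at 246, 149 and 133 CPM and Col3a1 at 14426, 13036 and 11579 CPM, all in the order of the adipocyte sum. Col7a1 was at 104, 159 and 245 CPM, Col12a1 at 7725, 8309 and 9390 CPM and Col6a3 at 2408, 2482 and 3266 CPM, in the reverse order. Ing1-KO replicate 3 had an adipocyte sum within the DKO range and a Col15a1 level within it as well, but its Col7a1 level of 245 CPM was above the highest DKO library. With 3 libraries an order has no test, and the part of adipocyte RNA in these values was not tested.

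**Figure D5:**
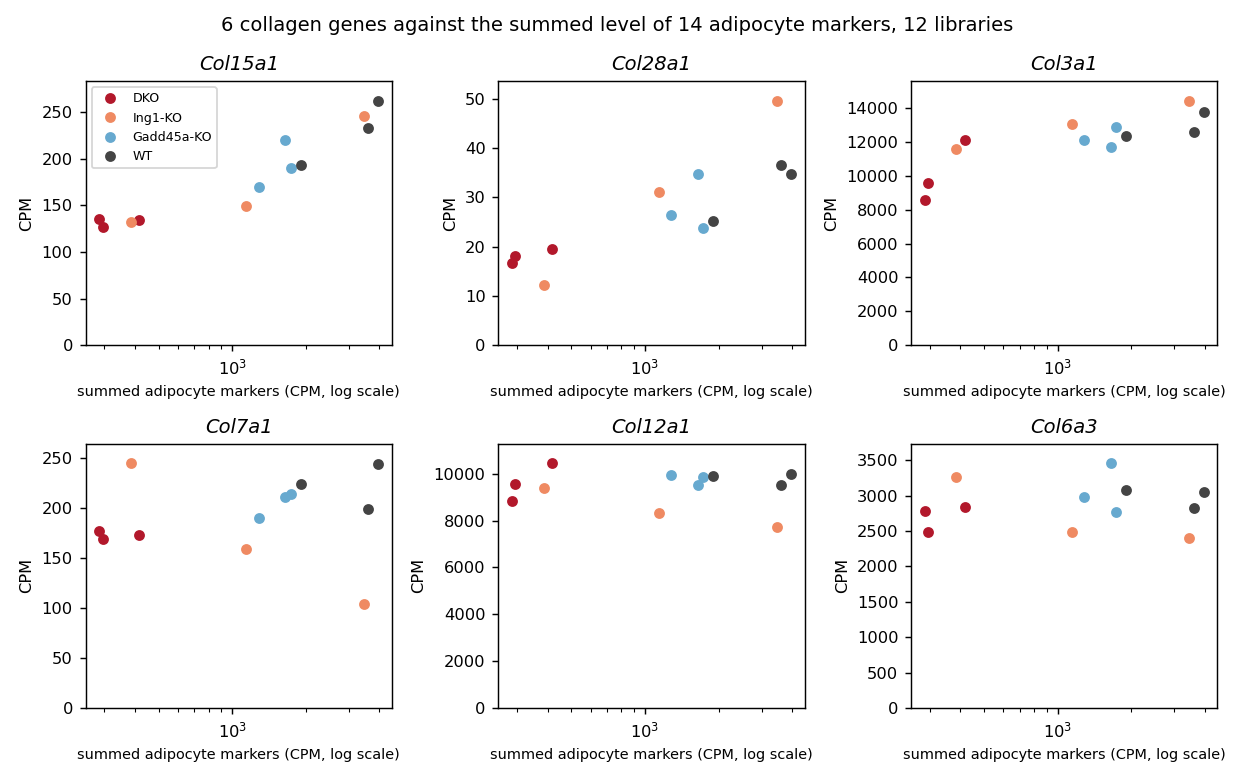
CPM of 6 collagen genes (vertical axes from 0) against the summed CPM of 14 adipocyte markers (horizontal axes, log scale), 1 point per library, coloured by genotype. Among the 3 Ing1-KO points Col15a1, Col28a1 and Col3a1 go up with the adipocyte sum and Col7a1, Col12a1 and Col6a3 go down.

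Chains that share a molecule were compared as ratios within each library, as a description without a test. The ratio of Col1a1 to Col1a2, in CPM per kb of the longest coding transcript, was 0.924 ± 0.0317 in DKO, 0.940 ± 0.0299 in Ing1-KO, 0.908 ± 0.0239 in Gadd45a-KO and 0.940 ± 0.0281 in WT (SD, n = 3 each). The ratio of Col6a1 to Col6a2 was 1.54 ± 0.00925 in DKO and 1.56 ± 0.00897 in WT, although both chains were lower in DKO. The ratio of Col6a3 to Col6a1 was 0.580 ± 0.0360 in DKO and 0.532 ± 0.0152 in WT, and it ran from 0.414 to 0.602 among the Ing1-KO libraries. The ratio of Col4a1 to Col4a2 lay between 1.15 and 1.30 in all 12 libraries, and that of Col5a1 to Col5a2 between 0.845 and 0.965. Col24a1 and Col27a1 were compared as the closest relatives among the fibrillar genes and not as chains of 1 molecule. Their ratio was 1.53 ± 0.204 in DKO and 1.23 ± 0.124 in WT. The absolute ratios depend on the length given to each gene, and with merged exons that of Col1a1 to Col1a2 was 1.95 over all libraries in place of 0.928.

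Genes that make, trim, link, bind or break down collagen were counted as lists, to be read against all genes: 5.88% were higher and 7.11% lower in DKO against WT. Leave-one-out results are not reported for the genes of these lists in any comparison. In the libraries labelled DKO against WT, 2 of 22 tested genes of chain folding and modification fell: Larp6, which binds collagen I mRNA (-0.45, edgeR adjusted p = 0.0108), and Plod1, a lysyl hydroxylase (-0.27, edgeR adjusted p = 0.0245). Of 11 tested genes of procollagen trimming and fibril assembly 3 fell: Adamts2, the main procollagen I N-proteinase, at 278 ± 7.94 CPM in DKO and 385 ± 21.8 CPM in WT (-0.48 ± 0.05, edgeR adjusted p = 0.00119), its relative Adamts14 (-0.29) and the tenascin gene Tnxb (-1.45). Adamts2 also fell in Ing1-KO against WT (-0.28), in DKO against Ing1-KO (-0.19) and in DKO against Gadd45a-KO (-0.34, edgeR adjusted p = 0.0135). Of 10 small proteoglycans 3 fell in DKO, Bgn at 6309 ± 232 CPM in DKO and 7369 ± 120 CPM in WT, Podn and Prelp. Among laminins and other basement membrane proteins, Lamc1 (-0.31) and Lama4 (-0.37), both laminin chains, fell; the count of this list is not given here. Of 9 tested collagen receptors 2 rose, Adgrg6 (0.48), a receptor of collagen IV, and Itga1 (0.38), an integrin chain. Of 13 tested genes of collagen breakdown 1 rose, Fap, a fibroblast protease (0.95, edgeR adjusted p = 0.00896). Of 7 lysyl oxidases and other cross-linking genes, edgeR called 0 and DESeq2 called 0. At an unadjusted p under 0.05 edgeR found 1 of them, beside 4640 of all 16163 genes. The medians of these 7 lists lay between -0.22 and 0.05 on the log2 scale.

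In Ing1-KO against WT, 4 of 13 genes of collagen breakdown and its inhibitors rose and 0 fell: the inhibitor Timp2 (0.36), Fap (0.97), Mmp16 (0.65) and the gelatinase Mmp2 (0.46). Over all genes 2.31% were higher and 1.84% lower in that comparison, and the share called ran from 0.586% to 7.05% in leave-one-out fits. In DKO against Ing1-KO 4 of these 13 fell, beside 6.02% of all genes, namely Mmp2 (-0.64), the lysosomal protease Ctsk (-0.52), Mmp16 (-0.76) and Timp2 (-0.22). Of 22 genes of chain folding 3 rose in Ing1-KO, the prolyl hydroxylase family members P3h3 and P3h4 and the folding enzyme Fkbp14, by 0.22 to 0.28, and Larp6 fell (-0.44). Of 10 small proteoglycans 1 rose, Ogn (1.35, at 226 ± 66.5 CPM in Ing1-KO and 87.2 ± 0.946 CPM in WT), and 1 fell, Podn (-0.30). Nid2, a linker of basement membranes, rose in Ing1-KO (0.78), while Lamc1 (-0.23) fell, again without a count for the list. Of the 7 cartilage collagens, which are not members, 3 rose and 0 fell in DKO against WT, and 2 rose and 0 fell in Ing1-KO against WT. Whether they changed differently from the other collagens was not tested.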

How the data were processed

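The authors deposited 1 file per library with unnormalized read counts for each Ensembl gene. Tools named in the submitters' processing notes are HTSeq 0.5.4, Bowtie2 2.1.0, TopHat2 2.0.9, DESeq and FastQC, with builds mm9 and NCBIM37. Counting mode and strand setting were not given in these sources, and the kit named in the labels does not mark strand. The 5 lines that name no gene took 24.2% to 24.9% of each library, mostly reads aligned to several places, and were not used.

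Symbols, gene types, lengths and neighbours came from GENCODE vM21, a later build, and promoters from RefSeq GRCm38.p6. Computed from the counts were CPM (plain library totals) and tests by edgeR 4.0.16 in R 4.3.3: TMM factors (0.986 to 1.01), filterByExpr, robust dispersions and quasi-likelihood tests from 1 fit over the 12 libraries and Benjamini-Hochberg adjustment over 16163 genes, threshold 0.05. The SE of a log2 fold change is its size divided by the square root of the F statistic. Members, lists and tests were chosen with earlier results of these data known. Named are all collagen members, the targets, and up to 4 called genes per list and comparison; 1 listed gene is not reported here. Alternatives were DESeq2 1.42.0, upper-quartile or RLE factors, a minimum mean of 5 CPM, no filter, the replicate number as a block, the compared libraries alone and leaving out each library. Counts limit rare members (under 100 reads) most. Sampling noise was exceeded between all replicates of a genotype (chi-square per gene 5.64 to 74.0).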

Additional observations from a re-analysis of the deposited data

How the results depend on the processing

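The counts of called collagen genes moved mainly with single libraries. In leave-one-out fits they ran from 1 to 12 for the libraries labelled DKO against WT (10 with all libraries), from 0 to 14 for DKO against Ing1-KO (7), from 0 to 5 for DKO against Gadd45a-KO (1), from 1 to 6 for Ing1-KO against WT (2), from 0 to 0 for Gadd45a-KO against WT (0) and from 0 to 2 for the departure from additivity (0). Calls over all genes moved in these fits as well. Their share ran from 1.82% to 16.9% for DKO against WT, and from 0.0366% to 19.4% for DKO against Ing1-KO. For DKO against Gadd45a-KO it ran from 0.0366% to 3.66%, and for Ing1-KO against WT from 0.586% to 7.05%. It ran from 0.0122% to 0.214% for Gadd45a-KO against WT and from 0.0% to 1.17% for the departure from additivity. Leave-one-out fold changes were compared for the called members and those chosen for a closer check, not for every member and comparison. Among these, 2 that were not called turned sign in 1 fit each: the log2 fold change ran from -0.088 to 0.021 for Col12a1 in DKO against WT (positive without DKO replicate 2), and from -0.23 to 0.036 for Col8a2 in DKO against Ing1-KO (positive without Ing1-KO replicate 1). For Ing1-KO against WT the count was 1 without a filter, 1 at a mean of at least 5 CPM, 4 with DESeq2 and 1 with the compared libraries alone. Calls over all genes were, in that order, 539 of 25970, 573 of 10837, 1264 of 16163 and 398 of 15769, beside 671 of 16163 in the main fit. For DKO against Gadd45a-KO the count of members was 2 with RLE and 2 with upper-quartile factors, 6 with DESeq2 and 3 with the compared libraries alone. Calls over all genes rose there as well, from 192 of 16163 in the main fit. They were 241, 237 and 1234 of 16163 and 431 of 15559, in the same order. For DKO against Ing1-KO the count of members was 4 at a mean of at least 5 CPM, which leaves fewer genes, and 4 with the compared libraries alone. Calls over all genes were 1780 of 10837 and 1220 of 15568 there, beside 1932 of 16163 in the main fit. For the departure from additivity DESeq2 gave 2 members, beside 175 of 16163 genes. The cause of these shifts was not tested, other than fewer genes or libraries where the setting makes them so. For DKO against WT the settings other than leave-one-out gave 7 to 14, beside 5.75% to 20.3% of all genes.

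The replicate numbers did not pair the libraries: same-numbered libraries of different genotypes had deviations correlated between -0.19 and 0.25, and 4 of 12 libraries correlated best with their own number. With the replicate number as a block the count was 0 for DKO against Gadd45a-KO, 4 for DKO against Ing1-KO, 9 for DKO against WT, 2 for Ing1-KO against WT and 0 for the rest. Calls over all 16163 genes fell in the comparisons named, to 92, 1344, 1784 and 536 in that order, in place of 192, 1932, 2099 and 671. The members lost were Col16a1 in DKO against WT, Col6a1, Col6a2 and Col18a1 in DKO against Ing1-KO, and Col23a1 in DKO against Gadd45a-KO. Over all genes, upper-quartile factors gave 717 higher and 1170 lower in DKO against Ing1-KO, in place of 959 and 973, and 98 higher and 139 lower in DKO against Gadd45a-KO, in place of 102 and 90. The called members were the same 7 in DKO against Ing1-KO. Shares of gene reads, with 1 library left out, ran from 6.52% to 6.89% in DKO, 7.20% to 7.44% in Ing1-KO, 7.25% to 7.36% in Gadd45a-KO and 7.25% to 7.57% in WT. With merged exons as gene length, chosen after seeing the data, the mean ratio was 1.95 for Col1a1 to Col1a2, 1.12 for Col4a1 to Col4a2, 1.27 for Col5a1 to Col5a2 and 2.59 for Col6a1 to Col6a2. Depth limits Col26a1, Col19a1, Col6a5, Col17a1, Col22a1, Col4a3, Col13a1 and Col4a4, all with fewer than 100 reads in every library.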
